A study of Rattus norvegicus with 6 samples.

Results

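The 29 genes described here are the Hox genes of a table of 17525 messenger RNAs measured in primary rat (Rattus norvegicus) granulosa cells, which line the ovarian follicle around the oocyte. They are the rows whose symbol is Hox, a cluster letter from a to d and a number, a rule on names that uses no measured value. The rats of the series were 21 days old, received 60 IU of PMSG, a gonadotropin that stimulates follicle growth, and gave their ovaries 48 h later for dispersal and culture. By their titles 3 libraries belong to ATR and 3 to Control, and all 6 come from cells prepared in this way. Atrazine, a herbicide, is named in the title of the series, but the labels do not spell out ATR, and no dose or route is given in the sources used here. Values used here are those of the ATR group, so every one below describes ATR cells and none is an effect of an exposure. The libraries are called ATR 1, ATR 2 and ATR 3, and errors are SDs over these 3 libraries. Whether animals or cultures were separate is not labelled, and the spread between libraries may be technical.

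Hox genes encode homeodomain transcription factors that give cells their position along the head-to-tail axis. They lie in 4 clusters, HoxA to HoxD, and the members with the same number in different clusters are copies called a paralog group. Low numbers act toward the head and high numbers toward the tail, and in the female tract Hoxa9, Hoxa10 and Hoxa13 pattern successive stretches from the oviduct downward. Hox proteins bind DNA together with TALE homeodomain cofactors of the Pbx and Meis families. Polycomb complexes keep Hox genes silent, Trithorax complexes keep them active, and retinoic acid induces them in the embryo. Fibroblasts from different body regions are known to keep different Hox patterns in culture.

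The promoters of Hoxd8 and Hoxd9 are shown because these neighbours in HoxD had reads that differed between libraries, and that of Hoxa13 is set beside them as a member with 1 read in all. Each run is the 250 bases before the gene's start, from RefSeq on build GRCr8, written 5′ to 3′ along the gene's strand with every CG dinucleotide in capitals. Hoxd8 is at chr3:80014973-80015222 on the plus strand, Hoxd9 at chr3:80007756-80008005 on the plus strand and Hoxa13 at chr4:82691702-82691951 on the minus strand.
Hoxd8: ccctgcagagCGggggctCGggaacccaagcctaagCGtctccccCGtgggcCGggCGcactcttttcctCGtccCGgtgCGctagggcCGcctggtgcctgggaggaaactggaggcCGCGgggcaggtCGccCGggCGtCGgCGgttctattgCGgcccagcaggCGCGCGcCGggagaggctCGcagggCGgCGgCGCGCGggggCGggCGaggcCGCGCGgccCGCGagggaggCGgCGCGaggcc
Hoxd9: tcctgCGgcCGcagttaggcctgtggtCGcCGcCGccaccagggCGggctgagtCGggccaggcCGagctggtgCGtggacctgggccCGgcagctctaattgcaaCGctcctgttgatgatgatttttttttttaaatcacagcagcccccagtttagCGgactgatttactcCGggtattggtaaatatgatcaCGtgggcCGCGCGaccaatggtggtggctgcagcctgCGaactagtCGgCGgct
Hoxa13: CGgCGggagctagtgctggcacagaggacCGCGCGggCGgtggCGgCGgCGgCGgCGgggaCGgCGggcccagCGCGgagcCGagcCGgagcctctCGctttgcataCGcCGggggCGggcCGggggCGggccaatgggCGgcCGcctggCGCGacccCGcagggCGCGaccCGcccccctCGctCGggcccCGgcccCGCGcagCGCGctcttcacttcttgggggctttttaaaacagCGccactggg

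The Hoxd8 run holds 38 CG dinucleotides, the Hoxd9 run 20 and the Hoxa13 run 39. The mean levels of the 3 genes were 1.66, 1.08 and 0.027 TPM (a level scaled for transcript length and library size), so the members with the most CG dinucleotides of these 3 stood at both ends of the order of levels. Among the 12 members with a promoter in that table under the same gene identifier, the number of CG dinucleotides ran from 3 to 39 with a median of 20.5. The median over all 33469 promoters of that length was 5. The letters TATAAA, searched on both strands, occurred in 1 of the 12 and in 12.9% of all promoters. GGGCGG occurred in 7 of the 12 and in 30.5% of all, CCAAT in 7 and in 34.0%, and TGATNNAT, a Hox and Pbx composite, in 0 and in 7.96%. These are matches of letters in a window and not sites.

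Hox messenger RNA was scarce in these cells. The 29 members held 826.65 estimated reads over the 3 libraries, or 14.5 CPM (reads scaled to library size). Their levels summed to 12.1 TPM in ATR 1, 16.7 in ATR 2 and 18.4 in ATR 3, a mean of 15.7 ± 3.28 TPM (SD, n = 3). In all, 5 of 29 members had a mean of 1 TPM or more, against 71.4% of all genes in the table, and 21 members lay below 0.5 TPM. The median member stood at 0.187 TPM and the median gene of the table at 10.1 TPM. In a bulk library a low level from all cells and a higher level from a few cells cannot be told apart.

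**Figure D1:**
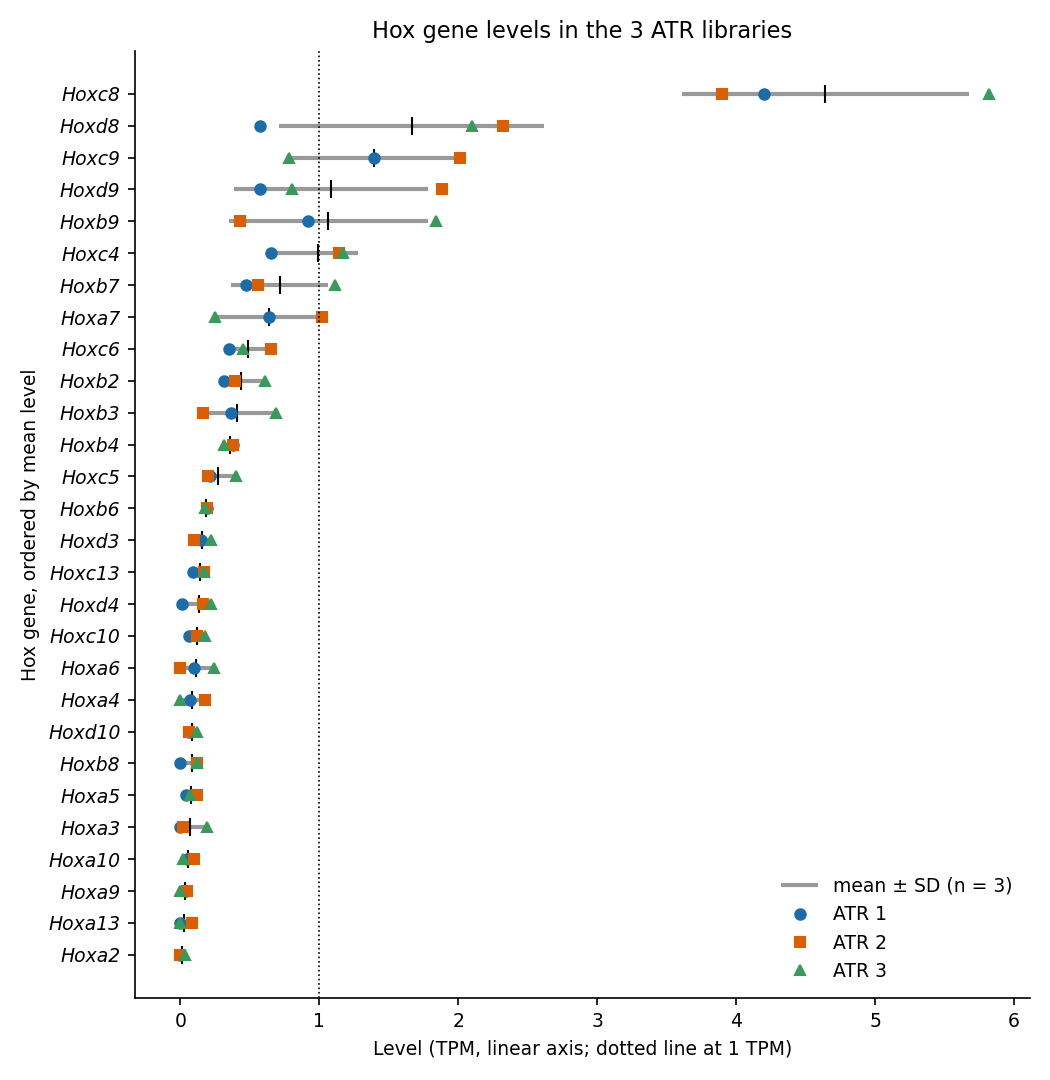
Level of the Hox genes reported by name, in TPM on a linear axis, with 1 point per ATR library and the mean ± SD over the 3 libraries as a grey bar. Hoxc8 sits between 3.90 and 5.82 TPM, above every value of every other gene drawn, and 5 genes have a mean to the right of the dotted line at 1 TPM.

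The order of levels was led by paralog groups 8 and 9. Hoxc8, a gene of trunk identity in the embryo, stood in ATR 1, ATR 2 and ATR 3 at 4.2, 3.90 and 5.82 TPM, a mean of 4.64 ± 1.03 TPM (SD, n = 3) from 45, 42 and 64 reads. It ranked 10383 among the 17525 genes, and it was the only member at 1 TPM or more in each library. Its lowest library lay above the highest value of any other member, 2.32 TPM for Hoxd8. Hoxd8, from the HoxD cluster, stood at 0.57, 2.32 and 2.1 TPM, a mean of 1.66 ± 0.953 TPM, from 10, 41 and 38 reads. ATR 1 was low and the other libraries were alike.

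Group 9 genes, which act at the passage from trunk to lumbar levels, came next. Hoxc9 stood at 1.39, 2.01 and 0.78 TPM in the same order of libraries, a mean of 1.39 ± 0.615 TPM. Hoxd9 stood at 0.57, 1.88 and 0.80 TPM, a mean of 1.08 ± 0.699 TPM, with ATR 2 above the others. Hoxb9 stood at 0.92, 0.43 and 1.84 TPM, a mean of 1.06 ± 0.716 TPM, and here ATR 2 was the lowest. The ranges of these 3 genes overlap, so their order is not resolved. Hoxa9, the group 9 gene of the HoxA cluster and a patterning gene of the oviduct, had 0.67, 1.00 and 0 estimated reads and a mean of 0.030 TPM. The 7 members of groups 8 and 9 together gave 63.7%, 64.0% and 62.3% of all Hox TPM in the 3 libraries.

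Of groups 4 to 7, none reached a mean of 1 TPM. Hoxc4 was close, at 0.65, 1.14 and 1.17 TPM, a mean of 0.987 ± 0.292 TPM. Hoxb7 stood at 0.47, 0.56 and 1.11 TPM, and Hoxa7 at 0.64, 1.02 and 0.25 TPM, so ATR 3 was the highest library for Hoxb7 and the lowest for Hoxa7. Hoxb4, known for its role in blood stem cells, was nearly level at 0.38, 0.38 and 0.31 TPM, from 6, 6 and 5 reads. Hoxc5 stood at 0.21, 0.20 and 0.40 TPM and Hoxb6 at 0.19, 0.19 and 0.18 TPM. Hoxd4 had 1, 13 and 9 reads, with ATR 1 the lowest. Hoxa4, Hoxa5, Hoxa6 and Hoxb8 of the central groups had between 2 and 7.19 estimated reads in all libraries together, too few for an order.

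Hoxc6 had the most reads of any member, 42, 77 and 55, but a level of only 0.35, 0.65 and 0.45 TPM. It carried 120 reads per TPM, against a median of 21.3 and quartiles of 13.6 and 33.9 over genes at 5 TPM or more, which corresponds to a long transcript in the authors' annotation. In RefSeq the Hoxc6 gene overlaps Hoxc4 and Hoxc5, and the library protocol in the labels describes no step that marks strand. The sources used here do not say how reads were divided among these 3 genes, so their single levels are uncertain. In all, 10 of the 29 members overlap another gene in RefSeq.

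Genes of the anterior groups, which pattern the hindbrain and neck, did not reach 1 TPM either, and Hoxb2 and Hoxb3 lay among the central genes in level. Hoxb2 stood at 0.31, 0.39 and 0.61 TPM and Hoxb3 at 0.36, 0.16 and 0.69 TPM. Hoxd3 had 3, 2 and 5 reads. Hoxa3 had 0, 0.5 and 4.5 estimated reads and Hoxa2 had 1 read, in ATR 3. Where a library holds 0 reads, up to 3 reads are allowed by counting error, which is 0.156 to 0.161 CPM at these depths.

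Beyond group 9 almost nothing was counted. Hoxc10 had 1, 2 and 3 reads, and Hoxd10, a gene of lumbar and limb patterning, 1, 1 and 2. Hoxa10, which patterns the uterus, had 0.88, 2 and 0.33 estimated reads. Hoxc13, known from hair and nail, had 1, 2 and 2 reads, and Hoxa13, a gene of limb and lower genital tract, had 1 read, in ATR 2. At 1 to 3 reads in a library these genes cannot be ranked, and a difference of few reads was not detectable at this depth. RefSeq lists 39 Hox genes by the same naming rule, and the other 10, Hoxa11, Hoxb1, Hoxb5, Hoxb13, Hoxc11, Hoxc12, Hoxd1, Hoxd11, Hoxd12 and Hoxd13, are not analysed here.

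Across the 28 pairs of neighbours in the order of mean levels, the ranges over the 3 libraries overlapped in 27. The exception was Hoxc8 against Hoxd8. Of the 29 members, 22 had reads in each library, against 86.4% of all genes, and 13 had fewer than 10 reads over all libraries.

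**Figure D2:**
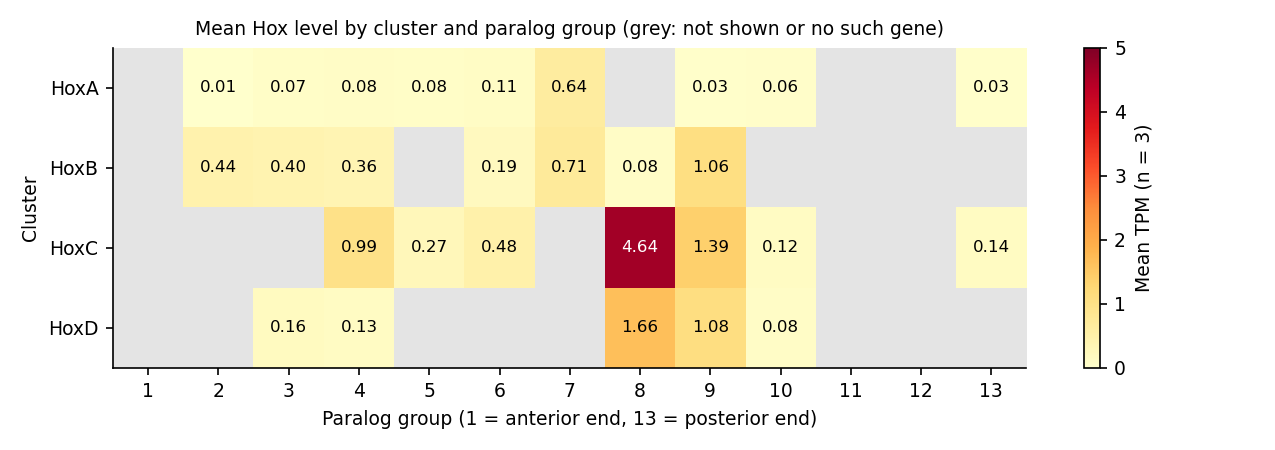
Mean level in TPM over the 3 ATR libraries for the Hox genes reported by name, with clusters as rows and paralog groups as columns and the colour scale running from 0 to 5 TPM. The darkest cell is Hoxc8 at 4.64 TPM, and the other members at 1 TPM or more all lie in columns 8 and 9.

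The clusters differed in their share of Hox messenger RNA. The 7 HoxC members gave 57.6%, 49.0% and 48.8% of the summed Hox TPM in ATR 1, ATR 2 and ATR 3, a mean of 51.8% ± 5.04 (SD, n = 3). HoxC was the leading cluster in each library. The 7 HoxB members gave 20.5% ± 6.63 and the 5 HoxD members 19.0% ± 7.88. HoxB led HoxD in ATR 1 and ATR 3, and HoxD led HoxB in ATR 2, so these clusters are not separated. The 10 HoxA members gave 8.70% ± 2.40, the lowest share in each library, and none of them reached 1 TPM. Hoxc8 alone gave 34.8%, 23.3% and 31.6% of the total. Without it the mean shares were 31.1% for HoxC, 29.8% for HoxB and 26.7% for HoxD, so the lead of HoxC rested largely on Hoxc8. HoxC then led in ATR 1 alone, with HoxD ahead in ATR 2 and HoxB in ATR 3.

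By position, groups 4 to 8 gave 66.1% ± 1.31 of Hox TPM, groups 9 to 13 gave 25.6% ± 4.07 and groups 1 to 3 gave 8.28% ± 2.91. The order was the same in each library. Shares of scaled reads that were not divided by length were 72.1% for groups 4 to 8 and 17.3% for groups 9 to 13.

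Read assignment in the HoxA cluster stood apart from the other clusters. Estimated counts that are not whole numbers in at least 1 library were found for 7 of the 10 HoxA members and for 0 of the 19 others, against 24.2% of all genes. A count counts as whole within 0.001. The identifiers of 26 of 29 members matched their symbols in RefSeq, and those of the rows named Hoxa2 and Hoxa10 did not. HoxA levels are therefore uncertain, and whether reads of HoxA genes were lost to other rows was not tested.

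Most genes around the clusters were measured at 1 TPM or more. In the gene order of RefSeq, 40 of the 48 protein-coding genes within 6 places of a cluster on either side were matched. Of these, 36 reached 1 TPM, against 71.4% of all genes. The median of the matched neighbours was 48.4 TPM, above the 10.1 TPM of the median gene of the table. Nearest to HoxD on the side of group 1, the mitochondrial import gene Mtx2 stood at 62.5 ± 2.95 TPM, beside 0.157 TPM for Hoxd3. On the other side, Lnpk, a gene of endoplasmic reticulum shape, stood at 27.5 TPM. Skap2, an adaptor protein gene beside the head end of HoxA, was at 15.3 TPM. Smug1, a DNA repair enzyme gene beside Hoxc4, was at 7.78 ± 1.37 TPM. Among the flanking genes listed by name, 9 of the 10 found reached 1 TPM, led by Hnrnpa1 (an RNA-binding protein, 431 ± 52.6 TPM), Hibadh (a valine-breakdown enzyme, 227 ± 9.74 TPM) and Cbx5 (heterochromatin protein 1 alpha, 69.7 ± 9.83 TPM). The counts of Hnrnpa1 and Smug1 are not all whole numbers, so their levels are uncertain. The same holds for Kmt2a, Kdm6a, Crabp2, Aldh1a1, Pdgfra, Col1a2, Nr2f2, Acta2, Cyp19a1, Cyp17a1 and Hba-a1, whose values are given further on. Ttll6, beside the tail end of HoxB, stood at 0.010 TPM.

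**Figure D3:**
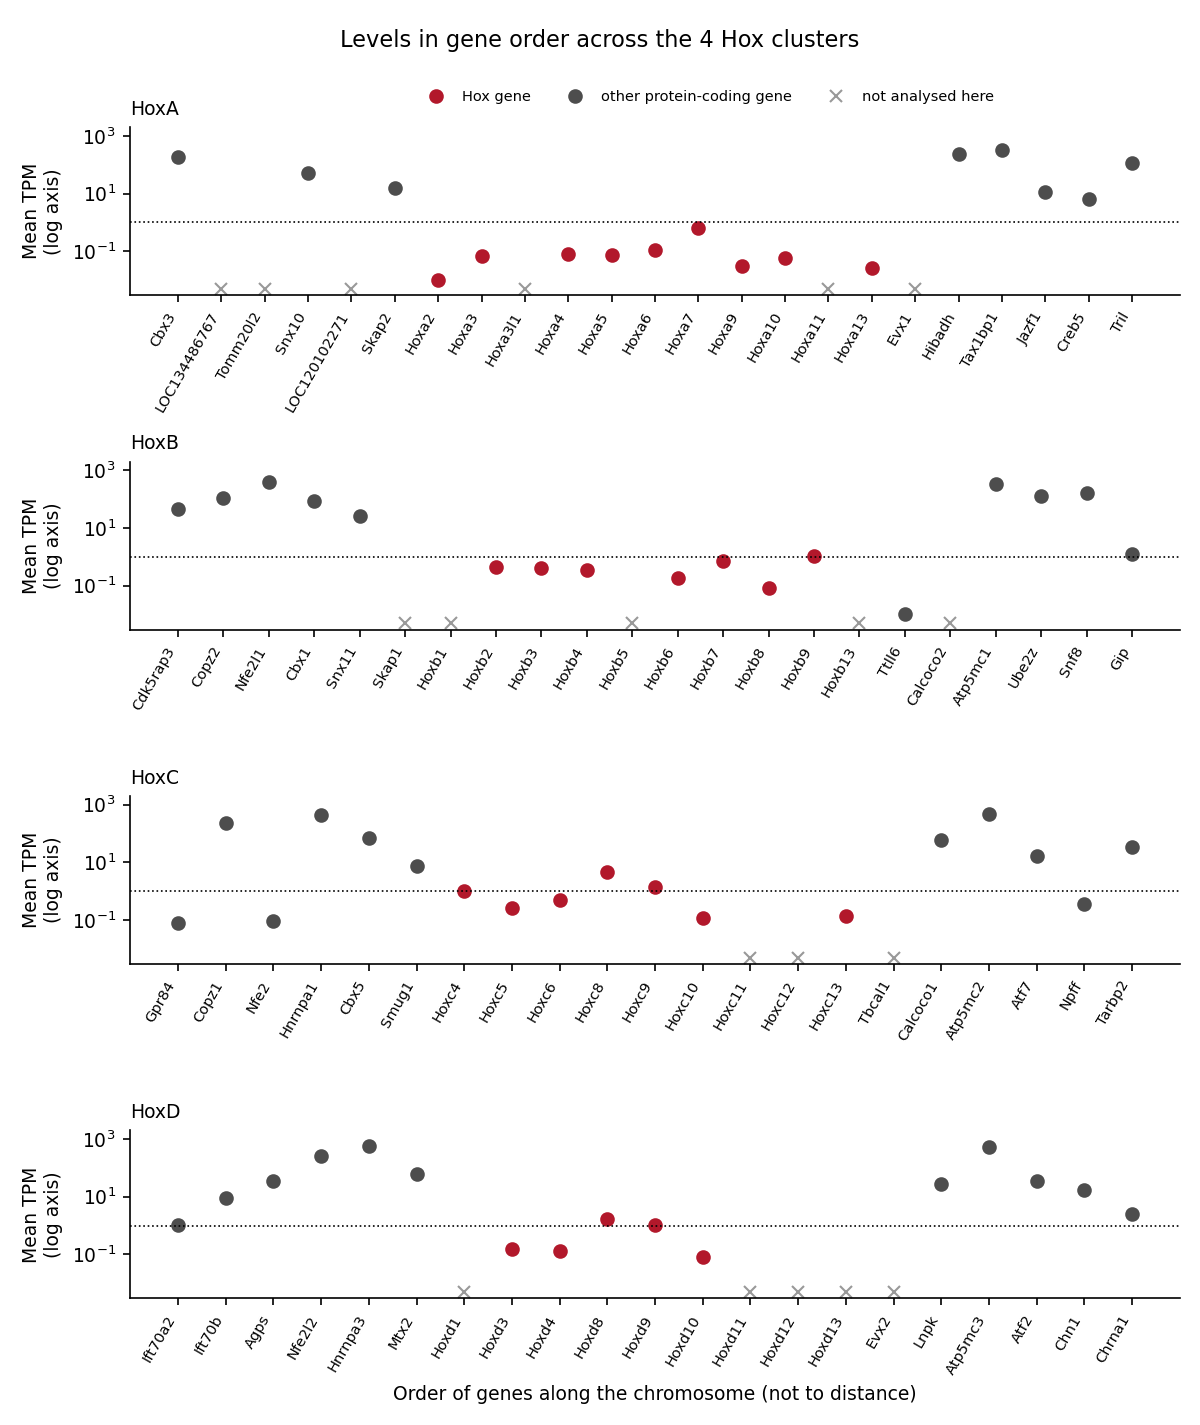
Mean level in TPM (log axis) of the protein-coding genes reported by name or flanking them, in RefSeq order along each Hox cluster, from the anterior groups at the left to the posterior groups at the right, with 6 neighbours on each side. Hox genes, in red, lie near or below the dotted line at 1 TPM apart from Hoxc8 at 4.64 TPM, while 36 of 40 neighbours in the table lie at or above it, and crosses mark genes not analysed here.

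Most genes of the TALE list, which holds the Pbx and Meis cofactors and also Tgif repressors, stood above the highest Hox gene. All 11 TALE genes were at 1 TPM or more, against 71.4% of all genes, and their median was 18.5 TPM, and 8 of them stood above Hoxc8. Meis1, a cofactor that stabilises Hox binding, stood at 160.03, 138 and 137 TPM, a mean of 145 ± 13.2 TPM, which exceeds the sum over all Hox members in each library. Tgif1, a TALE repressor of TGF-beta and retinoid targets, stood at 60.3 ± 2.69 TPM.

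Genes of both Polycomb and Trithorax complexes were expressed. All 21 Polycomb genes were at 1 TPM or more, against the same 71.4%, and their median was 23.4 TPM. The highest were the chromobox gene Cbx6 at 119 ± 3.29, the polyhomeotic gene Phc2 at 90.1 ± 0.205 and the ring finger gene Pcgf3 at 54.3 ± 0.620 TPM. Ezh2, the methyltransferase that marks silent Hox genes, stood at 14.2, 13.3 and 17.5 TPM, and its partner Eed stood above it at 41.2, 41.1 and 41.7 TPM. Of 9 Trithorax and demethylase genes, 8 reached 1 TPM and the median was 25.8 TPM. The highest were the core subunits Dpy30 at 86.5 ± 3.92 and Ash2l at 81.5 ± 2.95, and Men1 (menin, a partner of MLL1) at 39.5 ± 1.51 TPM. Kmt2a, the MLL1 methyltransferase of Hox genes, stood at 11.4, 11.4 and 11.5 TPM. The exception was Kdm6a, a demethylase of the Polycomb mark, at 0.030 TPM.

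Of 13 retinoic acid genes found, 11 had a mean of 1 TPM or more, against 71.4% of all genes, and the list's median was 21.2 TPM. Crabp2, which carries retinoic acid to the nucleus, led at 242 ± 30.03 TPM, followed by the synthesis enzyme Aldh1a1 at 34.01 ± 7.33 and the receptor Rara at 30.1 ± 1.48 TPM. The receptor Rarb, itself a retinoic acid target, stayed below 1 TPM at 0.22, 0.11 and 0.08 TPM.

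Homeobox, T-box and zinc finger genes of the urogenital ridge and of body regions were lower and uneven. Of 18 found among the 23 listed, 8 reached 1 TPM, with a median of 0.528 TPM. Wt1, a regulator of gonad and mesothelium, led at 28.8 ± 2.38 TPM, followed by Osr1, a zinc finger gene of kidney and gonad formation, at 12.3 ± 0.538 and Emx2, a homeobox gene of gonad and kidney formation, at 4.01 ± 0.782 TPM. Among the related lists with members in the table, only this one had a median below 1 TPM, as the Hox genes did. No member of the ParaHox list, which holds the Cdx genes, was found in the table, and those genes are not analysed here.

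**Figure D4:**
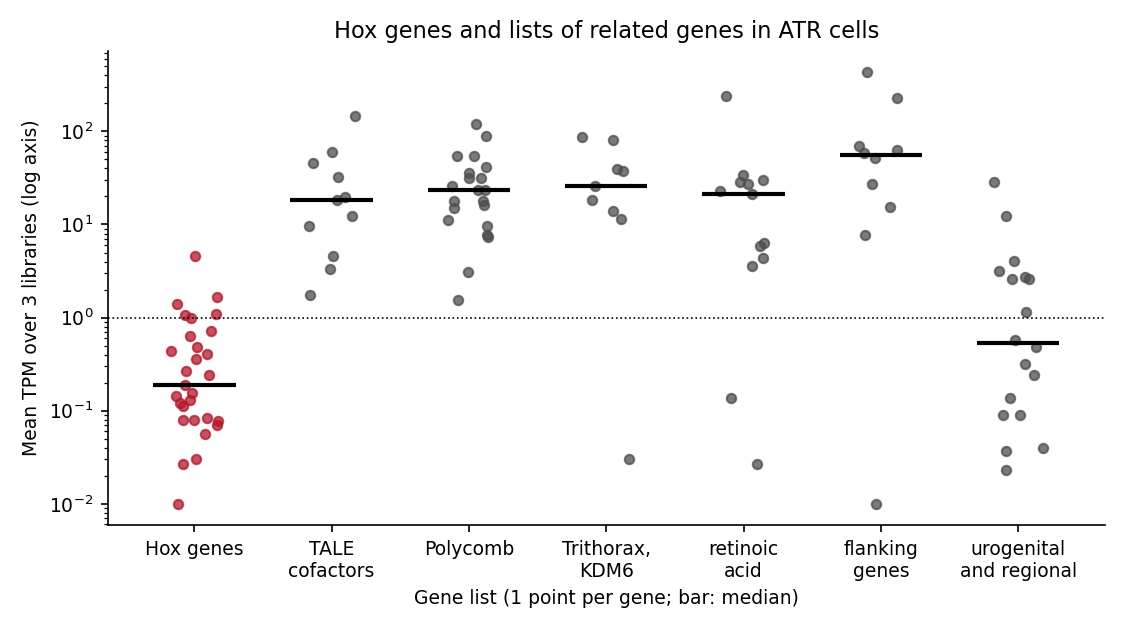
Mean level in TPM (log axis) over the 3 ATR libraries for the Hox genes and 6 lists of related genes, with 1 point per gene and a bar at each list's median. The Hox median lies at 0.187 TPM and the medians of the TALE, Polycomb, Trithorax, retinoic acid and flanking lists lie between 18.5 and 55.1 TPM, with the urogenital and regional list at 0.528 TPM.

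Differences between the 3 libraries were tested with a chi-square test of each gene's reads against scaled library sizes, adjusted by the Benjamini-Hochberg method over 13309 genes with at least 30 reads. The test compares libraries and not conditions. Only 7 of the 29 members had 30 reads, against 75.9% of all genes. Of these 7, 3 passed at an adjusted p of at most 0.05, against 23.2% of all genes tested and 13.9% of the genes with 30 to 200 reads. They were Hoxd8, Hoxd9 and Hoxc6, and each was lowest in ATR 1 and highest in ATR 2. Among all genes tested, 9.07% passed and were lowest in ATR 1, and 7.42% passed and were highest in ATR 2.

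Hoxd8 had the clearest difference. Its 41 reads in ATR 2 and 10 in ATR 1 gave a scaled read ratio of 4.17 (exact 95% interval 2.05 to 9.33, counting error only), and ATR 3 to ATR 1 gave 3.80 (1.86 to 8.56). The adjusted p of the chi-square test over the 3 libraries was 0.000413. Between ATR 2 and ATR 3 the ratio was 1.10 (0.687 to 1.75), so those libraries were not separated, and without ATR 1 the adjusted p was 0.870.

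Its neighbour Hoxd9 had 9, 30 and 13 reads, a ratio of ATR 2 to ATR 1 of 3.39 (1.57 to 8.11) and of ATR 2 to ATR 3 of 2.34 (1.19 to 4.90). Its adjusted p by the same chi-square test was 0.00426 and rose to 0.0633 without ATR 1. Without ATR 2 it fell under 30 reads and was not tested. Hoxc6 had a ratio of ATR 2 to ATR 1 of 1.86 (1.26 to 2.78) and an adjusted p of 0.0181, which became 0.204 without ATR 1 and 0.441 without ATR 2. Hoxd4, of the HoxD cluster, had 1, 13 and 9 reads and passed when the minimum was lowered to 10 reads (chi-square adjusted p = 0.0356). Its TPM is less certain than its reads, since 1 TPM stood for 100, 81.3 and 40.9 reads in the 3 libraries.

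The other 4 members tested did not pass. Hoxc8 had an adjusted p of 0.186 by the chi-square test. Its ratio of ATR 3 to ATR 1 was 1.42 (0.957 to 2.13), so a ratio of up to 2.13 is not excluded. Its ratio of ATR 2 to ATR 3 was 0.666 (0.441 to 0.999). Hoxc4 had a ratio of ATR 3 to ATR 1 of 2.17 (1.06 to 4.72) but an adjusted p of 0.185 over the 3 libraries. For Hoxb3 the adjusted p was 0.189 and for Hoxc9 it was 0.476. Hoxc4 was also lowest in ATR 1, whereas Hoxc8 and Hoxb3 were lowest in ATR 2 and Hoxc9 in ATR 3. HoxB members with 20 or more reads were each highest in ATR 3. Hoxb9, with 8, 4 and 17 reads, and Hoxb3, with 13, 7 and 19, were lowest in ATR 2, unlike Hoxd8. Hoxb7, with 5, 6 and 12 reads, was lowest in ATR 1, as Hoxd8 was. The ratio of ATR 2 to ATR 1 for Hoxb7 was 1.22 (0.310 to 5.05). That interval includes the 4.17 of Hoxd8, so Hoxb7 is not set apart from Hoxd8. The same ratio was 0.508 (0.112 to 1.90) for Hoxb9 and 0.547 (0.185 to 1.48) for Hoxb3. Both intervals, which cover counting error only, lie below the 2.05 to 9.33 of Hoxd8.

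**Figure D5:**
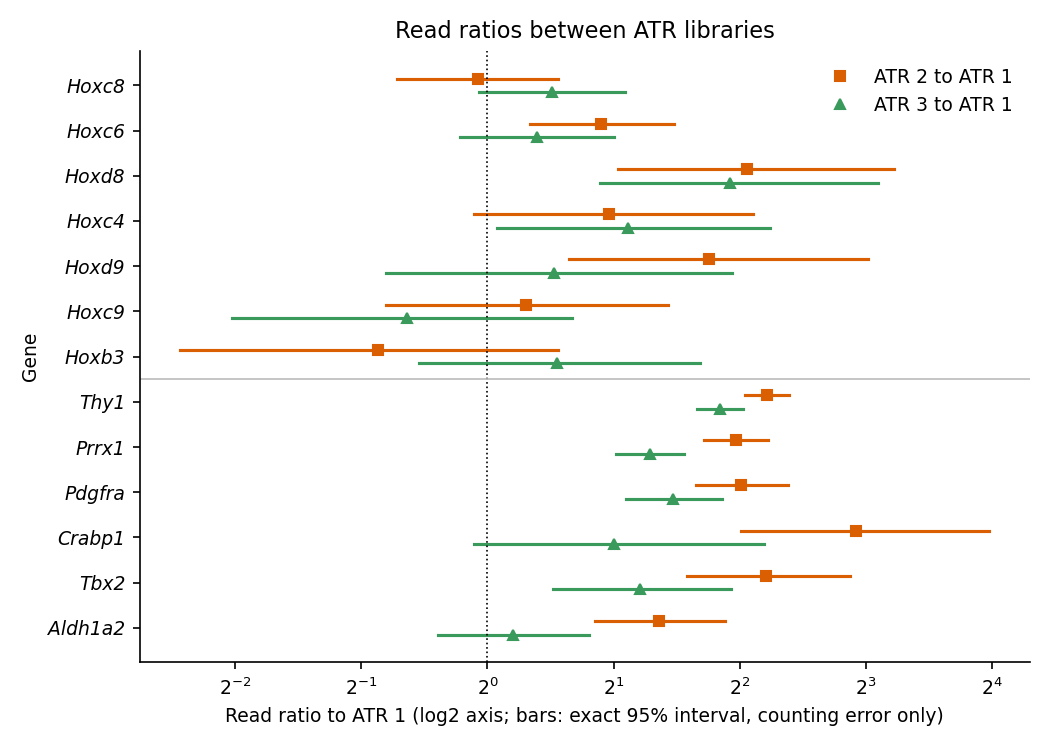
Scaled read ratios of ATR 2 and ATR 3 to ATR 1 on a log2 axis, with exact 95% intervals for counting error, for the 7 Hox genes with at least 30 reads (above the grey line) and 6 other genes named in the text (below it). Hoxd8 lies at 4.17 and 3.80, Thy1 at 4.64 and 3.59, and the intervals of Hoxc8 include 1 in both comparisons.

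Some genes of other lists had the same order of libraries. The related genes at 1 TPM or more that passed the test with at least 2-fold between the highest and the lowest library were Crabp1, Aldh1a2 and Tbx2. Crabp1, a retinoic acid binding protein, stood at 1.72, 12.7 and 3.34 TPM. Aldh1a2, a retinoic acid synthesis enzyme, stood at 2.31, 5.79 and 2.59 TPM. Tbx2, a T-box repressor, stood at 1.01, 4.54 and 2.72 TPM. Each was lowest in ATR 1 and highest in ATR 2, as were Hoxd8 and Hoxd9. In the Polycomb list 5 of 21 genes passed, with at most 1.31-fold between libraries for Ezh2. In the TALE list 2 of 11 passed, Meis1 and Pbx2, both at 1.17-fold. Both counts are near the 23.2% of all genes tested that passed. More passed in the retinoic acid list, 6 of 11 tested, the flanking list, 5 of 9, and the urogenital and regional list, 4 of 10. In these lists 4, 2 and 4 genes passed and were lowest in ATR 1, against 9.07% of all genes tested. Aldh1a1 passed but was highest in ATR 1, at 41.5, 33.6 and 26.9 TPM. None of the 8 Trithorax genes tested passed by the chi-square or the likelihood ratio test, and 1 did at an unadjusted p of 0.05.

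Some markers of stromal fibroblasts had the order of libraries of Hoxd8 and Hoxd9, and others did not. All 10 listed markers were found, and their summed level was 932 TPM in ATR 1, 1479 in ATR 2 and 1276 in ATR 3. Most of the rise in that sum was Col1a2, a fibrillar collagen gene, at 287, 801 and 601 TPM. Of the 9 markers tested 7 passed, against 23.2% of all genes, and 5 of them were lowest in ATR 1, against 9.07%. Thy1, a fibroblast surface antigen, had a ratio of ATR 2 to ATR 1 of 4.64 (4.12 to 5.25), Pdgfra, a growth factor receptor, one of 4.04 (3.15 to 5.23), and Prrx1, a mesenchymal transcription factor, one of 3.92 (3.29 to 4.68). Lum, a matrix proteoglycan gene, was also lowest in ATR 1 but highest in ATR 3, at 14.8, 17.7 and 22.04 TPM. Col14a1 and Ogn passed and were highest in ATR 1, at 333, 267 and 305 TPM and at 204, 181 and 179 TPM. Dcn at 25.3, 22.8 and 21.2 TPM and Nr2f2 at 31.4, 32.6 and 32.1 TPM did not pass, and Tcf21 was listed at 0 in ATR 1. The part of stromal cells in the Hoxd8 and Hoxd9 differences was not tested.

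Markers of some other cell types passed the test about as often. Passing counts were 6 of the 7 smooth muscle or pericyte markers tested, 7 of 10 for surface epithelium or mesothelium and 4 of 6 for granulosa cells. The share of all genes tested that passed was 23.2%. In these lists 2, 4 and 0 markers passed and were lowest in ATR 1, against 9.07% of all genes tested. Of leukocyte markers 1 of 6 passed, of theca markers 1 of 2 and of endothelial markers 0 of 2. Markers with many reads passed at small differences, such as Tagln at 1.08-fold between libraries. Krt7, an epithelial keratin gene, stood at 55, 88.9 and 79.9 TPM (chi-square adjusted p = 6.7e-36). Des, the muscle filament gene desmin, stood at 7.22, 20.4 and 7.69 TPM (1.2e-39 by the same test). Both had the order of libraries of Hoxd8 and Hoxd9, but other markers of their lists that passed did not. Upk3b stood at 1513, 1316 and 1379 TPM and Acta2 at 5853, 5282 and 5352 TPM, both highest in ATR 1. Of 8 granulosa markers, 6 reached 1 TPM, with Foxl2 at 63.6, 53.8 and 48.0 and Nr5a1 at 60.7, 62.7 and 59.3 TPM. Amh and Cyp19a1, defining granulosa genes, stood at 0.14 TPM or less in each library. Surface epithelium markers reached 1 TPM in 8 of 13 cases and summed to 2388, 2267 and 2331 TPM, and Upk3b was the highest of them. Smooth muscle markers summed to 17684, 16506 and 16342 TPM, nearly all from Tagln and Acta2. Leukocyte markers summed to 94.8, 120 and 118 TPM. Theca markers summed to 81.1, 108 and 115 TPM, nearly all of it Star. The theca markers Cyp17a1, Gli1 and Insl3 had means of 0.143, 0.0633 and 0.060 TPM. Red cell markers summed to 537, 425 and 410 TPM, nearly all of it Hba-a1. Endothelial markers summed to at most 3.80 TPM, oocyte markers to at most 1.52 TPM, and the oviduct markers Foxj1 and Pax8 together to at most 0.690 TPM. Their part in the Hox levels was not tested.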

How the data were processed

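Poly(A) RNA was read as pairs on an MGI2000, per the labels' protocols. Per the file headers, the authors deposited a TPM value and an estimated count of reads for each gene and library. Tools in the submitters' processing notes are HISAT2 2.2.1, StringTie 2.1.5 and fastp 0.20.1, none with a stated role, and builds are Rnor_6.0 and GRCm38. RefSeq tables of assembly GRCr8 gave gene order and promoters. The 3 ATR libraries held 19020494, 18677212 and 19170552 estimated reads. Control libraries were not analysed, and no ATR to Control contrast was run.

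Estimated counts were rounded to whole numbers and scaled by TMM in edgeR 4.0.16 under R 4.3.3. A chi-square test per gene was run on the whole table. The test was tested on simulated counts. Read ratio intervals are Clopper-Pearson. Intervals and floors cover counting error only, since molecules carry no identifiers. Alternatives were total-count and DESeq2 1.42.0 scaling, other read minimums, a likelihood ratio test, whole counts alone, other TPM limits and leaving out each library. Python 3.11.15 was used with scipy 1.17.1, pandas 2.3.3, numpy 2.4.6 and matplotlib 3.10.9.

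The naming rule uses no measured value, but the Hox genes and the lists were picked for description with earlier results of these data known. Every Hox gene at 1 TPM or more is named with its values and those below with reads or TPM. A few genes these rules name are not reported here. Of each related list the 3 highest members are otherwise named, and members at 1 TPM or more that passed with at least 2-fold between libraries. Mtx2, Lnpk, Skap2, Smug1, Ttll6, Ezh2, Eed, Kmt2a, Kdm6a and Rarb, and the markers, were named after their values were seen.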

Additional observations from a re-analysis of the deposited data

How the results depend on the processing

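No paired analysis was possible because only ATR libraries were analysed, and the alternatives planned for ATR against Control were not run. The count of Hox genes at 1 TPM or more was 5. It was 8 at a mean of 0.5 TPM, 0 at a mean of 5 TPM and 1 when 1 TPM was asked of every library, and between 4 and 6 with a library left out. The count of Hox genes that varied beyond counting noise was 3 of 7 tested, against 23.2% of all genes tested. It was 4 of 16 with a minimum of 10 reads and 4 of 29 with a minimum of 1 read. Shares of all genes under the alternatives are not given here, so these counts cannot be set against them. With a library left out the count ran from 0 of 5 tested (without ATR 1) to 3 of 6 (without ATR 3), with 1 of 5 without ATR 2. The likelihood ratio test gave 0 without ATR 1 too. By the chi-square test without ATR 1, 3 of the 5 Hox genes tested lay under an unadjusted p of 0.05. A test on 2 libraries has fewer genes over the minimum. Without Hoxc8, shares of Hox TPM moved by construction to 12.4% for HoxA, 29.8% for HoxB, 31.1% for HoxC and 26.7% for HoxD. By position they moved to 12.0% for groups 1 to 3, 51.4% for groups 4 to 8 and 36.6% for groups 9 to 13. With scaled reads in place of TPM, groups 4 to 8 gave 72.1% and groups 9 to 13 gave 17.3%. Summed Hox TPM, 15.7 in the main run, was between 14.4 and 17.6 with a library left out. Leaving out 1 of 3 libraries cannot move a mean by 1 SD, so this range is not a test of stability. With members of whole counts only the sum was 15.1 TPM. At these depths, members with under 10 reads cannot be ranked.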
